A study of Mus musculus with 6 samples.

Results

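The integrated stress response and the unfolded protein response were followed through 35 named genes, grouped here by their roles. They were looked up by symbol in the deposited count table of 53858 genes, where the 35 names matched 36 rows, because *Ddit3* names a pair of overlapping gene models. Of the 35 genes, 32 had enough counts to be tested, beside 12954 genes tested in all. The classes were 8 factors and feedback genes of the integrated stress response (6 tested), 7 amino acid and one-carbon genes that are targets of the transcription factor ATF4 (6 tested), 13 chaperones and folding enzymes of the endoplasmic reticulum (ER), 3 genes of ER-associated degradation, and the 3 ER stress sensors with *Xbp1*. The cells were motor neurons picked from the spinal cord of wild-type (WT) mice 6 days after a crush of the sciatic nerve. DiO, a green retrograde dye, was injected proximally into the nerve on day 0 to label injured neurons. DiI, a red dye, was injected further distally on day 2 to label neurons whose axons had grown that far. Whether it labelled only those neurons was not tested here. The 3 DiO-only pools (DiO+/DiI-) were compared with the 3 double-labelled pools (DiO+/DiI+), each of 10 to 15 picked neurons, and every neuron in both groups came from an injured animal. No uninjured group is among the samples, and the labels give neither age nor sex of the mice. Whether each pool had its own animal is not stated in the labels, and a p-value here therefore reflects the spread among these pools, part of which may be technical.

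The integrated stress response begins when kinases phosphorylate the translation factor eIF2, which lowers general protein synthesis while *Atf4* mRNA is translated more. ATF4 then activates genes of amino acid supply and one-carbon metabolism, and with prolonged stress the factor CHOP, encoded by *Ddit3*. The unfolded protein response has 3 sensors in the ER membrane: PERK (*Eif2ak3*), which feeds into ATF4, IRE1 (*Ern1*), which splices *Xbp1* mRNA, and ATF6, which is cleaved to a transcription factor. Both responses are known to be active in injured and degenerating neurons. ATF4 is controlled mainly in translation and XBP1 by splicing, neither of which a count per gene can show.

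The DNA letters that ATF6, XBP1 and ATF4 are known to bind were searched on both strands of RefSeq promoter windows (GRCm38.p6, 250 bases before to 50 after the start). The ER stress element ERSE is CCAAT and CCACG with 9 bases of any kind between them, ERSE-II is ATTGG and CCACG with 1 base of any kind between them, the UPR element is TGACGTGN and the CARE element, a C/EBP-ATF site, is TGATGNAAN. Windows were found for 32 of the 35 genes and not for *Atf6*, *Hyou1* and *Manf*. ERSE was present for 7 of the 11 chaperone genes with a window, against 0.119% of all 32851 windows. The elements and the genes were both chosen from what is known of these responses, so this contrast is a description and not a test. It was in the windows of *Hspa5*, *Hsp90b1* (2 matches), *Calr*, *Canx*, *Pdia6*, *Dnajc3* and *Creld2*. CARE was present for 5 members (*Asns*, *Chac1*, *Trib3*, *Slc7a11* and *Herpud1*), against 3.95% of all windows. ERSE-II was present only for *Herpud1* (0.0365% of all windows) and the UPR element only for *Hspa5* (2.01% of all windows), and no match overlapped a match of another motif. These counts describe letters, and a match was not shown to be a bound site in these cells. The 250 bases before the RefSeq start are shown for the members described in full below that hold a match, since they show which of the elements each gene carries. They run 5′ to 3′ in the direction of the gene, with the fixed letters of each match in capitals. The elements begin at -157 (UPR element) and -65 (ERSE) in *Hspa5*, at -23 (CARE) in *Asns*, at -113 (CARE, on the opposite strand) and -52 (ERSE-II) in *Herpud1*, at -145 (ERSE) in *Canx* and at -98 (ERSE) in *Pdia6*, counted back from the start.
Hspa5 (chr2:34771840-34772089, plus strand): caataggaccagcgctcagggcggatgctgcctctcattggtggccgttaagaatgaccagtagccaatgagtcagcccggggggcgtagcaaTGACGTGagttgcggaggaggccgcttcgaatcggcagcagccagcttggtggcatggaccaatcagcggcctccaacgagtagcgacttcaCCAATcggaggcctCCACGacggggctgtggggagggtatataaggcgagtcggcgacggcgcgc
Asns (chr6:7693210-7693459, minus strand): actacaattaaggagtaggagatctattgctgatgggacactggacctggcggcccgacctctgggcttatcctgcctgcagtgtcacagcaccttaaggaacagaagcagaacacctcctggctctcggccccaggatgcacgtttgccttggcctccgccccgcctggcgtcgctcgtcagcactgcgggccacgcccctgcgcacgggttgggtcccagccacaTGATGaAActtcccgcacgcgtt
Herpud1 (chr8:94386179-94386428, plus strand): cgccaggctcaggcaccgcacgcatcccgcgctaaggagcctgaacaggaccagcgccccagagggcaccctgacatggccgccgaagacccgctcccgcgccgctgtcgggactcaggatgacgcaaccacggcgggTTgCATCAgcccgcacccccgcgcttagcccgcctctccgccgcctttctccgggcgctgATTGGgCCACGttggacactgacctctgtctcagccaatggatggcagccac
Canx (chr11:50325674-50325923, minus strand): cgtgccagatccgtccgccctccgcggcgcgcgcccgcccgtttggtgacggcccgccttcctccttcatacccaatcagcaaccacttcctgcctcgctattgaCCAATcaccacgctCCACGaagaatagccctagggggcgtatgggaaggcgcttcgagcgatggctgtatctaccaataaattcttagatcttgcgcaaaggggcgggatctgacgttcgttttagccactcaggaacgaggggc
Pdia6 (chr12:17266339-17266588, plus strand): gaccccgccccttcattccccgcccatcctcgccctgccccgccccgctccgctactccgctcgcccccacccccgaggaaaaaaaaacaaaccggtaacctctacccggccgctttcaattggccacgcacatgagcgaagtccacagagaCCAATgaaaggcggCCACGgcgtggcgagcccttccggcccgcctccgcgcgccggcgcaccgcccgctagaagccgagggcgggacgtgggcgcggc

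Total counts ran from 2997714 to 6563403 per library, and 17229 to 22118 genes had a count in the DiO-only pools against 15657 to 16467 in the double-labelled pools. A count of 3, the limit of detection used here, corresponded to 0.457 to 1.00 CPM (counts scaled to a fixed total per library) before TMM scaling. The CPM levels given below are also scaled with TMM factors. Pool 2 of each group was the shallowest of its group and had the highest share of mitochondrial counts, 10.8% for DiO-only and 18.0% for double-labelled, against 3.96 to 6.13% elsewhere. All 7 motor neuron markers were detected in both groups, with summed levels of 2649 to 4528 CPM in DiO-only and 2881 to 4121 CPM in double-labelled pools. Summed oligodendrocyte markers were 287 to 587 CPM against 1463 to 4946 CPM. At an unadjusted p under 0.05, 9 of 12 genes were higher in the double-labelled pools (3.18% of all tested genes). The median difference of the 12 was 2.23 on the log2 scale. *Mbp* was the largest part of the sum, at 397, 143 and 335 CPM against 2339, 807 and 3909 CPM. Summed astrocyte markers were 868 to 1284 CPM against 1068 to 2334 CPM, a sum made up mostly of *Aldoc* and *S100b*, whose groups overlapped. By gene, 6 of the 10 tested were higher by the same measure, 5 did not overlap between the groups, and the list's median difference was 2.49 on the log2 scale. Fitted values were above 0 for 8 of the 10 and below 0 for 2, *Aldh1l1* (-1.27) and *S100b* (-0.13), whose groups overlapped. The genes of smallest p were *Atp1b2* and *Slc1a2*. *Atp1b2* was at 3.94, 6.01 and 5.16 CPM against 52.2, 19.0 and 99.6 CPM, and *Slc1a2* at 10.7, 15.0 and 14.3 CPM against 93.3, 39.9 and 84.7 CPM. Microglial markers summed to 84.6 to 86.4 CPM against 49.8 to 111 CPM. Endothelial and pericyte markers summed to 6.86 to 46.9 CPM against 1.83 to 10.1 CPM, with *Vtn*, *Pdgfrb*, *Cdh5* and *Cldn5* at 0 in every double-labelled pool. Interneuron markers summed to 70.6 to 123 CPM against 11.3 to 25.5 CPM, with *Slc17a7* at 0 in all 6 pools and *Pax2* at 0 in the double-labelled ones. Most of each DiO-only sum came from 1 gene that differed by pool. These were *Slc17a6* in pool 1 (62.6 CPM), *Sst* in pool 2 (105 CPM) and *Slc6a5* in pool 3 (92.45 CPM). Of the 10 interneuron markers 2 were tested, and both overlapped between the groups, with no unadjusted p under 0.05. Immediate early and inducible heat shock genes, which also respond to the handling of cells, summed to 4008 to 8378 CPM against 1601 to 3377 CPM. Of the 14 tested, 13 had fitted values below 0, 4 of them at an unadjusted p under 0.05 (2.63% of all tested genes). *Hspb1* was the largest part of the sum, at 1956, 5790 and 2612 CPM against 520, 1920 and 1647 CPM. In pooled cells, fewer cells of a type and less RNA per cell cannot be told apart. The part of other cells or of handling in the values below was not tested, also where marker values are given beside them.

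None of the 32 tested members differed between the groups at an adjusted p under 0.05 in edgeR's quasi-likelihood test, nor did any of the 12954 genes (0%), with 0.308 as the smallest adjusted p. With the unadjusted p, 0 of 32 members were under 0.05, against 5.81% of all tested genes. In 1 member, *Pdia6*, the pools of the groups did not overlap, with the double-labelled pools lower, against 12.9% of all tested genes in either direction, 7.07% in that direction and 5.86% in the other. The fitted log2 fold changes (double-labelled minus DiO-only) were above 0 for 19 members and below 0 for 13, with a median of 0.12 beside 0.02 for all tested genes. They ran from -1.27 for *Chac1* to 1.96 for *Trib3*. The median absolute log2 fold change was 0.34 for the members and 0.42 for all tested genes, and it was under 0.5 for 23 of 32 members (71.9%) and 56.3% of all tested genes. No member was called under any of the 14 alternative fits, of which 4 called any gene: edgeR without the filter on low counts (0.277% of its genes), edgeR with a replicate block (0.178%), and DESeq2 with (0.587%) and without (0.139%) the filter.

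**Figure D1:**
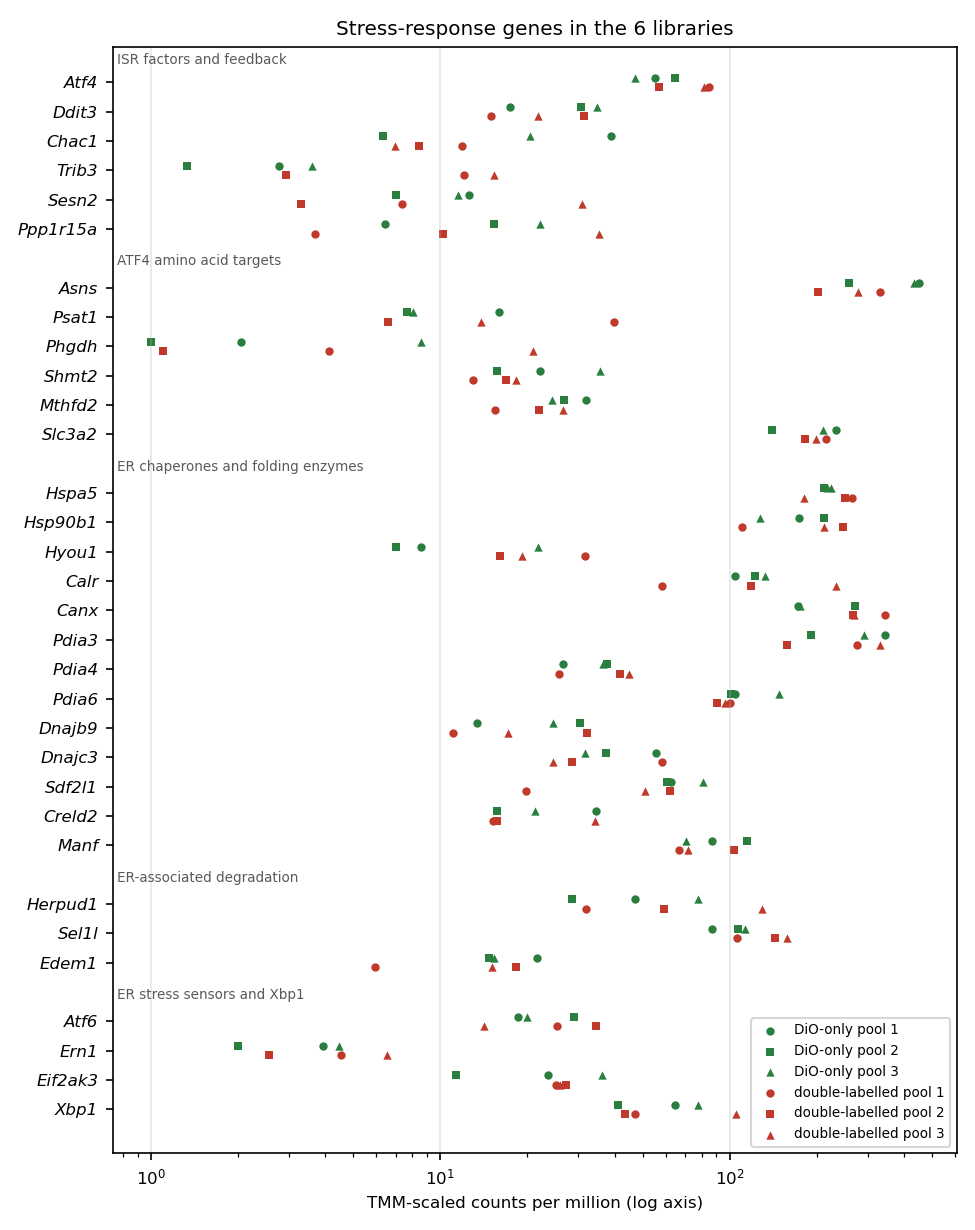
Level of each of the 32 tested members in the 6 pools, in TMM-scaled CPM on a log axis, with green for DiO-only and red for double-labelled pools and the marker shape giving the pool number. Green and red points overlap in every row except that of *Pdia6*, where the red points, 90.0 to 100.3 CPM, end just below the lowest green point at 101 CPM.

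Among the factors of the integrated stress response, *Atf4* (ENSMUSG00000042406, chr15:80255184-80257541, plus strand), the central transcription factor, was abundant in all pools. Its TMM-scaled levels were 55.0, 64.5 and 46.9 CPM in the DiO-only pools and 84.9, 57.1 and 81.2 CPM in the double-labelled pools. Double-labelled pools 1 and 3 lay above every DiO-only pool, and pool 2 lay within their range. The log2 fold change was 0.43 ± 0.33 (SE, 95% interval -0.30 to 1.16, adjusted p = 0.957), and it stayed between 0.31 and 0.56 when each pool was left out. *Ddit3* (ENSMUSG00000025408, chr10:127290774-127296288, plus strand), which encodes CHOP, was at 17.4, 30.7 and 34.7 CPM in the DiO-only pools and at 15.0, 31.5 and 21.7 CPM in the double-labelled pools. Its groups overlapped over nearly their whole ranges, with a log2 fold change of -0.28 ± 0.47 (SE, adjusted p = 0.984). The other gene model with this name shares 105 exon bases with the first and had 0 counts in every pool, and 3.97% of the exon bases of *Ddit3* overlap *Mars* on the opposite strand.

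The largest differences in size, in either direction, were in genes downstream of ATF4 and CHOP, described here because of their values. *Trib3*, a pseudokinase that restrains ATF4 and CHOP, was at 2.77, 1.34 and 3.61 CPM in the DiO-only pools, where it rested on 4 to 21 counts, and at 12.1, 2.93 and 15.3 CPM in the double-labelled pools. Double-labelled pools 1 and 3 were above all DiO-only pools while pool 2 was not. The fold was 3.88 (95% interval 0.952 to 15.8), which did not pass the test (adjusted p = 0.870). *Chac1*, a glutathione-degrading enzyme induced by ATF4, had the opposite sign, with 38.8, 6.35 and 20.4 CPM against 11.9, 8.42 and 6.97 CPM. DiO-only pool 2 was the lowest of all 6, and the other DiO-only pools were the highest. The fold was 0.414 (95% interval 0.150 to 1.14, adjusted p = 0.885), and the log2 fold change was -0.57 to -1.70 when each pool was left out. *Trib3* and *Chac1*, which both hold a CARE match, thus had fitted values of opposite sign.

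*Sesn2*, a stress-induced regulator of the kinase mTORC1, was at 12.5, 7.02 and 11.5 CPM against 7.40, 3.29 and 30.8 CPM. *Ppp1r15a*, which encodes GADD34, the subunit that directs the dephosphorylation of eIF2, was at 6.42, 15.4 and 22.2 CPM against 3.70, 10.2 and 35.2 CPM. In both genes double-labelled pool 3 was the highest of the 6 pools and another double-labelled pool was the lowest. Their log2 fold changes were 0.43 and 0.18, and without double-labelled pool 3 they were -0.95 and -1.10. In double-labelled pools 1, 2 and 3 the summed oligodendrocyte markers were 2942, 1463 and 4946 CPM. The summed motor neuron markers were 2881, 3036 and 4121 CPM in the same pools. The part of other cells in the values of *Sesn2* and *Ppp1r15a* was not tested. *Atf5*, a relative of *Atf4*, had 0, 6 and 13 counts in the DiO-only pools and 6, 8 and 0 in the double-labelled pools, and *Ddit4*, an inhibitor of mTORC1, had 0, 2 and 0 against 1, 4 and 8. Neither was tested.

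The amino acid targets of ATF4 held the most abundant member. On a length-scaled measure (counts per kilobase of exon, scaled to the same total in every library), *Asns*, the asparagine synthetase, reached 332 ± 163 (SD, n = 3) in DiO-only and 224 ± 91.8 (SD, n = 3) in double-labelled pools, the highest mean level of the 35 genes. In TMM-scaled CPM, *Asns* (ENSMUSG00000029752, chr6:7675169-7693254, minus strand) was at 449.6, 259 and 434 in the DiO-only pools and at 332, 202 and 278 in the double-labelled pools. Each double-labelled pool lay below the DiO-only pools 1 and 3, and pools 1 and 3 of the double-labelled group lay above DiO-only pool 2. The log2 fold change was -0.49 ± 0.33 (SE, 95% interval -1.22 to 0.24, adjusted p = 0.945). *Slc3a2* (ENSMUSG00000010095, chr19:8706882-8723369, minus strand), the heavy chain shared by several amino acid transporters, was at 233, 140 and 209 CPM against 214, 182 and 199 CPM. Its double-labelled pools all lay between DiO-only pools 2 and 1, and the fold was 1.02 (95% interval 0.642 to 1.63, adjusted p = 0.996).

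The enzymes that make serine and use it for one-carbon units had fitted values of both signs. *Phgdh*, the first enzyme of serine synthesis and a gene known to be abundant in astrocytes, was at 2.04, 1.00 and 8.59 CPM against 4.11, 1.10 and 20.9 CPM. *Psat1*, the next enzyme, was at 15.9, 7.68 and 8.08 CPM against 39.9, 6.59 and 13.8 CPM. For *Phgdh* the high value was in double-labelled pool 3 and for *Psat1* in double-labelled pool 1. In double-labelled pools 1, 2 and 3, the astrocyte markers *Atp1b2* (52.2, 19.0 and 99.6 CPM) and *Fgfr3* (14.6, 10.3 and 43.2 CPM) were also highest in pool 3, *Slc1a2* (93.3, 39.9 and 84.7 CPM) was highest in pool 1, *Aqp4* (31.0, 17.6 and 32.4 CPM) was about level in pools 1 and 3, and the list's sum was 2334, 1068 and 1446 CPM. In the same pools *S100b* (348.3, 594 and 344.6 CPM) was highest in pool 2, and *Aldh1l1* (0, 12.81 and 14.61 CPM) was absent from pool 1. The part of astrocytes in the values of *Phgdh* and *Psat1* was not tested. The log2 fold changes were 1.16 ± 1.16 (SE) and 0.93 ± 0.69 (SE), and they were -0.57 for *Phgdh* without double-labelled pool 3 and -0.05 for *Psat1* without double-labelled pool 1. The mitochondrial folate enzymes *Shmt2* and *Mthfd2* had values of -0.61 ± 0.48 (SE) and -0.38 ± 0.43 (SE). *Shmt2* ran from 15.7 to 35.6 CPM against 12.9 to 18.2 CPM, and *Mthfd2* from 24.4 to 31.8 CPM against 15.4 to 26.5 CPM. *Slc7a11*, the cystine transporter, had 24, 9 and 1 counts against 7, 1 and 1 and was not tested. The class had 3 tested members above 0 and 3 below, with a median log2 fold change of -0.17. Without double-labelled pool 3 the median was -0.54 with 4 below 0, and without double-labelled pool 1 it was -0.12 with 5 below 0.

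The 13 ER chaperones and folding enzymes had nearly the same summed level in all pools, 1383 to 1413 CPM in the DiO-only pools and 1382 to 1583 CPM in the double-labelled pools, with double-labelled pool 3 the highest. Fitted log2 fold changes were above 0 for 6 and below 0 for 7, with a median of -0.11, and 10 of the 13 were under 0.5 in size. *Hspa5* (ENSMUSG00000026864, chr2:34771970-34777547, plus strand), which encodes BiP, the main ER chaperone and the usual readout of ER stress, was at 214, 211 and 224 CPM in the DiO-only pools and at 265, 251 and 181 CPM in the double-labelled pools. The 3 DiO-only values lay close together, with double-labelled pools 1 and 2 above and pool 3 below them. The fold was 1.07 (95% interval 0.690 to 1.67, adjusted p = 0.987). Among the lectin chaperones, which hold glycoproteins in the folding cycle, *Canx* (ENSMUSG00000020368, chr11:50293961-50325673, minus strand) was at 172, 272 and 174 CPM against 345, 266 and 269 CPM. DiO-only pool 2 was the exception in its group, lying above double-labelled pools 2 and 3. The log2 fold change was 0.51 ± 0.31 (SE, 95% interval -0.17 to 1.19, adjusted p = 0.929). *Calr*, the soluble relative of *Canx*, was at 105, 123 and 132 CPM against 58.6, 119 and 232 CPM, with the lowest and the highest pool both double-labelled. Its log2 fold change of 0.19 became -0.45 without double-labelled pool 3.

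The protein disulfide isomerases, which form and rearrange disulfide bonds, did not differ beyond the spread between pools in the test. *Pdia6* (ENSMUSG00000020571, chr12:17266545-17284770, plus strand) was at 104, 101 and 148 CPM against 100.3, 90.0 and 96.5 CPM. DiO-only pool 2 and double-labelled pool 1 lay next to each other, so the separation of the groups was small, and the fold was 0.814 (95% interval 0.510 to 1.30, adjusted p = 0.970). *Pdia3* (ENSMUSG00000027248, chr2:121413775-121438687, plus strand), the isomerase that works with calreticulin and calnexin, was at 344, 191 and 291 CPM against 276, 158 and 331 CPM. Pool 2 was the lowest in each group, and the fold was 0.926 (95% interval 0.537 to 1.60, adjusted p = 0.987). *Pdia4* had a log2 fold change of 0.15. Of the other chaperones, *Hyou1*, a relative of the HSP70 chaperones that exchanges the nucleotide of BiP, had the largest value, 0.83 ± 0.58 (SE), with 8.61, 7.02 and 21.8 CPM against 31.6, 16.1 and 19.2 CPM. *Sdf2l1*, a small partner of BiP, had the lowest, -0.63 ± 0.43 (SE), with 62.9, 60.8 and 81.1 CPM against 19.7, 62.2 and 50.8 CPM. In both genes the farthest value was that of double-labelled pool 1. *Hsp90b1*, the ER form of HSP90, was at 127 to 212 CPM against 110 to 246 CPM. A pseudogene, *1810014B01Rik*, overlaps 10.3% of the exon bases of *Hsp90b1* on the opposite strand and had 3073 counts beside 5346. How reads from the shared bases were counted is not stated. The co-chaperones *Dnajb9* and *Dnajc3*, the isomerase *Creld2* and the secreted factor *Manf* had log2 fold changes between -0.18 and -0.13. An overlapping antisense gene covers 4.71% of the exon bases of *Manf*.

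Of the 7 chaperone genes with an ERSE match, 4 had fitted log2 fold changes above 0 (*Canx*, *Calr*, *Hsp90b1* and *Hspa5*, 0.10 to 0.51) and 3 below 0 (*Dnajc3*, *Creld2* and *Pdia6*, -0.30 to -0.13). None passed the test.

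**Figure D2:**
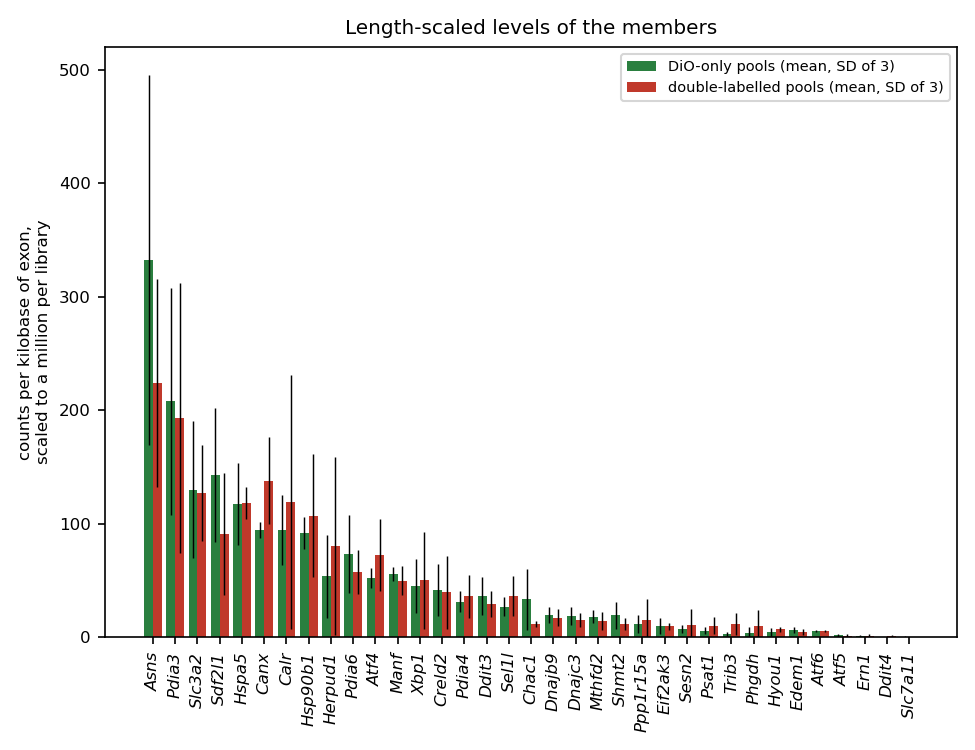
Length-scaled level (counts per kilobase of exon, scaled to the same total in every library) of the 35 members in order of their mean over all pools (the bars are means of 3 pools and the lines their SD, green for DiO-only and red for double-labelled). *Asns* has the highest bars (332 and 224), followed by *Pdia3* (208 and 193), and the SD lines of the groups overlap for these genes.

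On the length-scaled measure, *Pdia3* followed *Asns* with 208 ± 100 in DiO-only and 193 ± 119 in double-labelled pools (SD, n = 3). *Slc3a2* came next (130 ± 60.2 and 127 ± 42.4), then *Sdf2l1* (143 ± 59.2 and 90.9 ± 53.5), *Hspa5* (117 ± 36.1 and 118 ± 14.0), *Canx* (94.4 ± 7.41 and 138 ± 38.1) and *Calr* (94.4 ± 30.9 and 119 ± 112). From *Slc3a2* to *Calr* neighbours in this order did not differ beyond their SD. *Atf4* was 11th of the 35 genes at 51.8 ± 8.80 and 72.2 ± 31.7. The sensors *Eif2ak3* (9.76 ± 6.84 and 9.66 ± 3.03), *Atf6* (5.28 ± 0.610 and 5.49 ± 0.923) and *Ern1* (1.03 ± 0.588 and 1.36 ± 0.991) were lower than most chaperones.

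Genes of ER-associated degradation, which returns misfolded proteins to the cytosol, included 2 members above 0 and 1 below. *Sel1l* (ENSMUSG00000020964, chr12:91806043-91849157, minus strand), the adaptor of the ubiquitin ligase that carries out this export, was at 86.5, 107 and 113 CPM against 106, 143 and 158 CPM. Double-labelled pools 2 and 3 lay above every DiO-only pool and pool 1 within them, with a log2 fold change of 0.41 ± 0.31 (SE, 95% interval -0.27 to 1.09, adjusted p = 0.957). *Herpud1* (ENSMUSG00000031770, chr8:94386438-94395377, plus strand), an ER stress-induced partner of the same complex, was at 47.1, 28.4 and 77.5 CPM against 31.8, 59.3 and 129 CPM. Its highest pool was double-labelled pool 3, and its log2 fold change of 0.53 ± 0.52 (SE, adjusted p = 0.970) became -0.18 without that pool. *Edem1*, a lectin that marks glycoproteins for degradation, was at 14.7 to 21.6 CPM against 5.96 to 18.3 CPM, with a log2 fold change of -0.40 ± 0.58 (SE).

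The sensors and *Xbp1* had fitted log2 fold changes of 0.10 to 0.39. *Eif2ak3* (ENSMUSG00000031668, chr6:70844515-70905245, plus strand), which encodes PERK, was at 23.6, 11.4 and 36.1 CPM against 25.1, 27.1 and 25.9 CPM. The double-labelled pools lay close together and inside the DiO-only range, and the fold was 1.09 (95% interval 0.525 to 2.27, adjusted p = 0.987). *Xbp1* (ENSMUSG00000020484, chr11:5520659-5525893, plus strand) was at 64.5, 41.1 and 77.7 CPM against 47.1, 43.6 and 105 CPM. Its fold was 1.07 (95% interval 0.561 to 2.04, adjusted p = 0.988), and its log2 fold change of 0.10 was -0.44 without double-labelled pool 3, the highest pool. *Atf6* was at 18.5 to 29.1 CPM against 14.2 to 34.4 CPM, and *Ern1* at 2.00 to 4.47 CPM against 2.56 to 6.57 CPM, with log2 fold changes of 0.13 and 0.39.

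**Figure D3:**
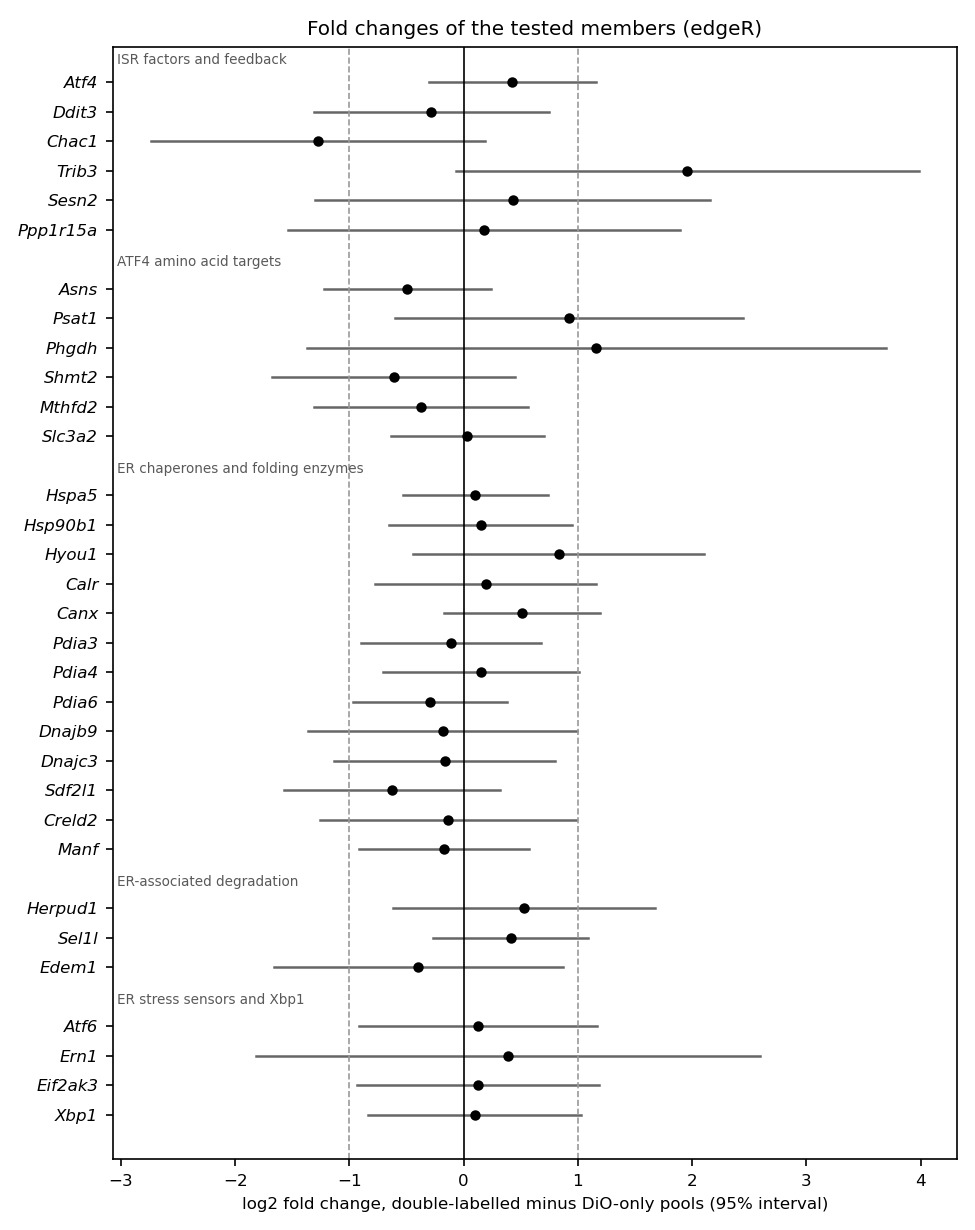
Log2 fold change of each tested member, double-labelled minus DiO-only pools, with its 95% interval from edgeR (n = 3 pools a group); dashed lines mark a 2-fold change in either direction. Every interval includes 0, and 6 of 32 lie wholly between the dashed lines.

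The precision differed between members. Every 95% interval included 0, and for 6 of 32 members, *Slc3a2*, *Hspa5*, *Hsp90b1*, *Pdia3*, *Pdia6* and *Manf*, it lay within a 2-fold change in either direction, as it did for 1467 of the 12954 tested genes. For the other 26 members the interval reached beyond a 2-fold change in at least 1 direction, and an adjusted p above the threshold does not show that the groups are alike. The least precise were *Phgdh* (-1.37 to 3.70 on the log2 scale), *Ern1* (-1.82 to 2.59) and *Trib3* (-0.07 to 3.98), which are also among the members with the fewest counts.

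Pools of the same group differed from each other. Averaged over the 6 tested integrated stress response factors, double-labelled pool 3 stood 0.75 (log2) above the mean of the DiO-only pools, with -0.11 for pool 1 and -0.38 for pool 2. The same averages for the 6 amino acid targets were 0.42 for pool 3, 0.14 for pool 1 and -0.56 for pool 2, and DiO-only pool 2 stood at -0.51. The means of the 13 chaperones ranged from -0.21 in double-labelled pool 1 to 0.12 in double-labelled pool 3, the narrowest range of the 5 classes. They average over more genes than the means of the other classes, which had 3 to 6 tested genes. The chaperone medians were -0.37, 0.21 and 0.31 in double-labelled pools 1, 2 and 3. Double-labelled pool 3 was the highest pool for 10 of 32 members (31.2%), against 22.2% of all tested genes. Double-labelled pool 1 was the lowest for 12 of 32 members (37.5%), against 25.9% of all tested genes, and for 7 of the 13 chaperones. The SD of log2 levels was larger in the double-labelled group for 22 of 32 members (68.8%), a share near the 69.4% of all tested genes.

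**Figure D4:**
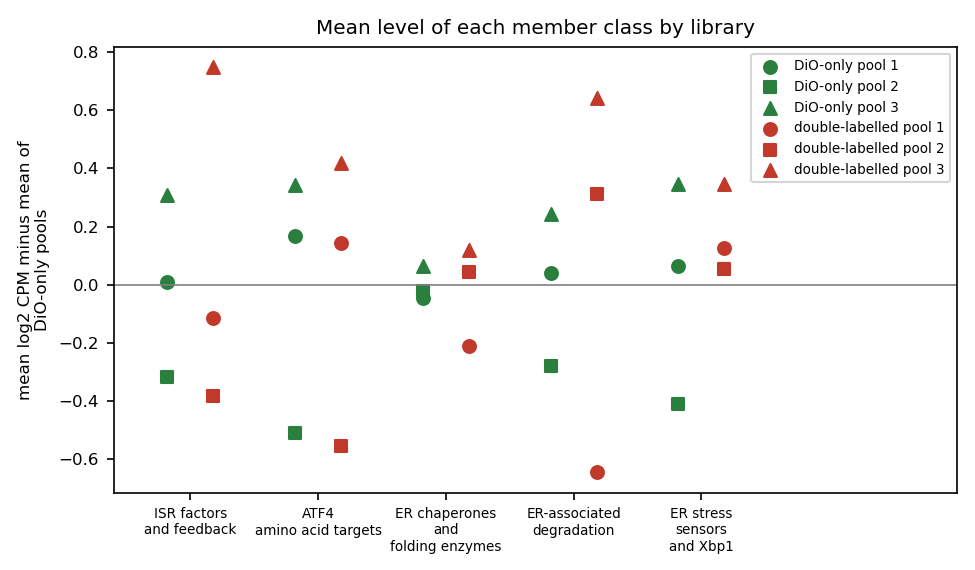
Mean log2 level of the tested members of each class in each pool, relative to the mean of the 3 DiO-only pools (green DiO-only, red double-labelled, marker shape the pool number). Chaperones (means of 13 genes) lie between -0.21 and 0.12. The integrated stress response factors (means of 6 genes) lie between -0.38 and 0.75, with pool 3 the highest and pool 2 the lowest in both groups.

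Other genes of the same pathways were examined in 7 lists of 153 genes, of which 139 were tested. None passed the adjusted threshold, 2 were higher (3.18% of all tested genes) and 3 lower (2.63%) at an unadjusted p under 0.05, and the median log2 fold change was -0.02. The 5 genes were in the lists of further ATF4-associated genes and of further ER folding genes. *Atf3*, a stress-induced factor and a standard marker of axon injury, was at 769.5, 1305 and 1116 CPM against 212, 575 and 644 CPM. All double-labelled pools lay below all DiO-only pools, with a log2 fold change of -1.16 ± 0.42 (SE, adjusted p = 0.720). *Atf3* is also on the list of handling-responsive genes, whose *Jun* and *Hspb1*, with *Atf3* those of smallest p, had values of -1.03 and -1.34. The lowest value on that list was -3.19 for *Zfp36*, at 2.48, 5.35 and 10.8 CPM against 0.41, 1.46 and 0.27 CPM, near the limit of detection. For 5 of its 14 tested genes (35.7%) the double-labelled pools lay below all DiO-only pools, against 7.07% of all tested genes. On the same list *Dusp1* and *Ier2* had values of -0.08 and -0.06 and *Hspa1a* 0.63, while *Fos*, *Fosb*, *Egr1* and *Hspa1b* were too low to test. The part of handling in the values of *Atf3* was not tested. *Vldlr*, a lipoprotein and reelin receptor, was at 33.9, 36.4 and 38.1 CPM against 10.7, 27.4 and 13.4 CPM (adjusted p = 0.796). *Pck2*, the mitochondrial form of phosphoenolpyruvate carboxykinase, was at 12.1, 4.68 and 2.92 CPM against 20.8, 26.4 and 14.7 CPM (adjusted p = 0.766). Among ER folding genes, *Uggt1*, which returns unfolded glycoproteins to calnexin, was at 130, 182 and 162 CPM against 69.0, 115 and 88.6 CPM (adjusted p = 0.761). *Dnajc1*, an ER co-chaperone, was at 10.5, 21.7 and 6.87 CPM against 29.8, 26.0 and 46.6 CPM (adjusted p = 0.742). In each of the 5 genes named from the pathway lists, picked for their small p, the pools of the groups did not overlap. Over all 139 tested genes of the lists this held for 17 (12.2%), a share near the 12.9% of all tested genes.

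Among aminoacyl-tRNA synthetases of the ATF4 set, which charge transfer RNAs with amino acids, 10 of 13 had values below 0, with a median log2 fold change of -0.23, while 48.7% of all tested genes had values below 0. Of the 14 genes for the other eIF2 kinases, eIF2B and the phosphatase, 10 had values below 0 and the median was -0.25. None of either list had an unadjusted p under 0.05. The groups did not overlap for 3 synthetase genes (23.1%), *Aars*, *Nars* and *Tars*, with log2 fold changes of -0.44, -0.23 and -0.45. In all 3 the double-labelled pools were lower, as in 7.07% of all tested genes, while 12.9% did not overlap in either direction. Among the other pathway lists this share ran from 0% (eIF2 genes and ER stress signalling partners) to 24% (further ER folding genes, 6 of 25). The lists of further ER-associated degradation (25 tested), ER translocation (23 tested) and ER stress signalling partners (18 tested) had medians of 0.11, 0.01 and 0.08, with 0 genes at an unadjusted p under 0.05.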

How the data were processed

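RNA of 6 pools of picked motor neurons was amplified in 20 PCR cycles (SMART-Seq HT), per the labels' protocols, which name 3 batches without saying which pool belongs to which. The deposited values are raw read counts per gene, which the authors made with FastQC, HISAT2 and HTSeq on mm10, per the submitters' processing notes. For versions, annotation and strand setting, nothing was given in the sources used here. Counts of PCR copies are not independent molecules, so limits of detection cover counting error only. All 6 single-library files held the same counts as the deposited table.

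Genes were filtered with filterByExpr by group, which kept 12954 genes and 99.2% of the counts, and scaled with TMM factors. Groups were compared in R 4.3.3 in edgeR 4.0.16 with its robust quasi-likelihood test (Benjamini-Hochberg over all tested genes, threshold 0.05, two-sided), and SEs were derived from fold changes and F values. The common biological coefficient of variation was 0.587. Exon lengths and coordinates came from GENCODE M21 on GRCm38, which held 99.8% of the identifiers. Per-pool class averages used log2 CPM with a prior count of 2. Alternatives were other scalings, no filter or a filter of 10 counts in 5 libraries, DESeq2 1.42.0 with and without the filter, limma 3.58.1 voom, a replicate block and leaving out each pool.

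The members and lists were chosen with earlier results of these data known. Values per pool were given for *Atf4*, *Ddit3*, *Hspa5* and *Xbp1*, for members with an unadjusted p under 0.05 or groups that did not overlap, and for the 2 of highest mean CPM per class. Of each pathway list, up to 3 genes per direction of smallest unadjusted p under 0.05 were named. Other members given by pool were chosen after their values were seen.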

Additional observations from a re-analysis of the deposited data

How the results depend on the processing

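None of the 32 members (29 under the stricter filter) passed the threshold under any alternative. Members with an unadjusted p under 0.05 were *Trib3* with DESeq2 (adjusted p = 0.572 with the filter and 0.459 without it), *Asns* with limma voom (adjusted p = 0.652), *Chac1* and *Canx* without DiO-only pool 2, *Hyou1* without DiO-only pool 3 and *Trib3* without double-labelled pool 2. Over all alternatives the adjusted p of *Trib3* ran from 0.459 to 1 and that of *Asns* from 0.592 to 1. Of all tested genes, edgeR called 79 without the filter, DESeq2 76 with the filter and 75 without it, and edgeR with a replicate block 23. Each of the other alternatives, including every fit without 1 pool, called 0. Same-numbered pools had correlated deviations of 0.0742, 0.228 and 0.203, and each pool correlated best with its own number, which is a hint from the data and not a stated pairing. The block changed no member's call, but *Sesn2* (-0.12), *Ppp1r15a* (-0.21) and *Calr* (-0.0172) changed sign with the replicate block. The median of the stress response factors was -0.165 with the block (4 of 6 below 0) and 0.302 without it. That of the ATF4 branch was -0.165 with the block and 0.105 without it. The median over all tested genes with the block was -0.0748.

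Of 445 member values under alternatives, 408 kept their direction and 37, of 18 members, did not, and the cause was not tested. With voom, whose median over all tested genes was -0.09, *Sesn2* (-0.36), *Slc3a2* (-0.0472), *Dnajb9* (0.11), *Manf* (0.0308) and *Xbp1* (-0.19) changed sign and the chaperone median was 0.0308. The voom medians of the stress response factors and of the ATF4 branch were -0.0136 and -0.0603. Under the stricter filter the ATF4 branch median was -0.12 over 10 genes. Without 1 pool in turn, log2 fold changes ran from -0.95 to 0.86 for *Sesn2*, -1.10 to 0.64 for *Ppp1r15a*, -0.57 to 2.47 for *Phgdh*, -0.45 to 0.55 for *Calr*, -0.18 to 0.95 for *Herpud1* and -0.44 to 0.30 for *Xbp1*, all lowest without double-labelled pool 3. They ran from -0.0501 to 1.34 for *Psat1*, -0.0068 to 0.25 for *Hspa5*, lowest without double-labelled pool 1, and from -0.71 to 0.10 for *Dnajb9*, highest without it. The ranges were -0.15 to 0.18 for *Slc3a2*, -0.19 to 0.55 for *Eif2ak3* (both lowest without DiO-only pool 2), -0.42 to 0.0351 for *Manf* (highest without it), -0.66 to 0.0947 for *Dnajc3* and -0.64 to 0.22 for *Creld2* (both highest without DiO-only pool 1), -0.21 to 0.40 for *Atf6* and -0.11 to 0.42 for *Hsp90b1* (both lowest without double-labelled pool 2), -0.35 to 0.12 for *Pdia3* (highest without it) and -0.0090 to 0.36 for *Pdia4* (lowest without double-labelled pool 3). Also without 1 pool in turn, class medians ran from -0.61 to 0.48 for the stress response factors, -0.54 to 0.24 for the ATF4 branch of 12 genes, -0.18 to 0.55 for ER-associated degradation and -0.54 to -0.0477 for the amino acid targets, all lowest without double-labelled pool 3, from -0.089 to 0.0894 for the chaperones (-0.11 with all pools, and -0.135 to 0.0894 over all alternatives) and from 0.0032 to 0.42 for the sensors and *Xbp1*. The synthetase and eIF2 lists kept more values below 0 than above under every alternative. Depth limits *Atf5*, *Ddit4* and *Slc7a11*, which were too low to test, and *Phgdh*, *Ern1* and *Trib3*, with as few as 3 to 6 counts in a pool.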

Other observations

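Pool 2 was the lowest of its group in both groups for 11 of 32 members (34.4%), against 15.5% of all tested genes, and pool 3 for 1 member, *Dnajc3* (3.12%, against 13.3%). The 11 were *Asns*, *Phgdh*, *Psat1* and *Slc3a2* of the 6 tested amino acid targets, *Sesn2* and *Trib3* of the stress response factors, *Hyou1*, *Pdia3* and *Pdia6* of the chaperones, and *Ern1* and *Xbp1*. The summed level of the amino acid targets was 450 CPM in DiO-only pool 2 and 430 CPM in double-labelled pool 2, and 557 to 755 CPM in the other 4 pools. These are the shallowest pool of each group and the pools with the highest mitochondrial share, 10.8% and 18.0%. The labels do not tie the numbers to a batch, and the part of depth or RNA quality in these values was not tested.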
